A study of Bos taurus with 4 samples.

Results

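Fragments of the 5S and 5.8S ribosomal RNAs (rRNAs) were described in small RNA libraries from bovine oocytes. The members were the gene copies that the deposited annotation lists under the 5S or the 5.8S rRNA family, 312 of 38611 annotated names, of which 299 were 5S copies and 13 were 5.8S copies. They were matched by 2563 distinct read sequences, 1855 from 5S and 708 from 5.8S. All 4 libraries came from Bos taurus oocytes at the GV stage, in which the germinal vesicle (the large nucleus of the arrested oocyte) is intact. In 2 libraries the RNA came from an immunoprecipitation with an antibody against Tdrkh (TDRKH IP), and 2 libraries were input, taken with no antibody. No library from a control antibody was used here. The labels name no animal, pool or culture, so a p-value measures only how far these libraries spread, and that spread may be technical. Listed reads were 11138905 and 11060320 in the TDRKH IP libraries and 1079364 and 1354003 in the input libraries, all 18 to 36 nt long.

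Both rRNAs are parts of the large ribosomal subunit. 5S rRNA is transcribed by RNA polymerase III from many gene copies, while 5.8S rRNA is cut from the long precursor that also holds the other cytoplasmic rRNAs. Both give fragments when ribosomes or their surplus RNA decay. TDRKH is a Tudor domain protein of the mitochondrial surface that binds PIWI proteins and takes part in trimming the 3′ ends of piRNAs, the small RNAs that guide PIWI proteins. piRNAs typically begin with uridine, read as T in the libraries. The first base and the length of an rRNA fragment are therefore the 2 features that set a piRNA-like read beside an rRNA breakdown product.

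The rRNA sequences themselves were rebuilt from overlapping member reads, because the reads show which part of each rRNA was sampled. Capitals mark the exact read with the highest mean level in the TDRKH IP libraries, counted before a read is divided among its names. The 5S reads gave a stretch of 120 bases, which is not printed, and the 5.8S reads gave 3 shorter stretches. One copy listed under 5S, ENSBTAG00000044229.1, whose reads were not placed on the 5S stretch, gave a stretch of its own.
5S copy ENSBTAG00000044229.1: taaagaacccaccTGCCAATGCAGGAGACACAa
5.8S rRNA, stretch 1: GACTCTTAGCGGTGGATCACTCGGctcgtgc
5.8S rRNA, stretch 2: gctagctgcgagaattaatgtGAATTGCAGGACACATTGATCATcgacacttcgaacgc
5.8S rRNA, stretch 3: tcgaTGAAGAACGCAGCTAGCTa

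The end of 5.8S stretch 3 repeats the first bases of stretch 2, but its final a differs from the g that stands there. Positions below count from base 1 of each rebuilt stretch. A read was placed with at most 2 differing bases, and 5S reads that could not be placed made 38.7 and 36.5 reads per 1000000 listed reads (RPM) in the TDRKH IP libraries and 40.8 and 31.8 RPM in the input libraries. Unplaced 5.8S reads made 1.08 and 1.90 RPM in the TDRKH IP libraries and 16.7 and 11.8 RPM in the input libraries, a level 9.57 times higher in input.

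5S reads in the TDRKH IP libraries came mostly from the 5′ end of the rRNA, were mostly 23 to 27 nt long and more often began with T, while reads in input came from its 5′ end, middle and 3′ end in like parts. Reads that began at bases 1 to 4, here called 5′ end reads, made 82.0% and 83.8% of 5S reads in the TDRKH IP libraries and 33.6% and 39.1% in the input libraries. Reads that ended at the last 2 bases, 3′ end reads, made 0.859% and 0.825% in the TDRKH IP libraries and 30.3% and 30.9% in the input libraries. Inner reads, between those ends, made 6.66% and 5.76% in the TDRKH IP libraries and 32.1% and 27.2% in the input libraries. These shares do not depend on how libraries are scaled, and for each of the 3 kinds the 2 groups did not overlap. The kinds were set after the positions had been seen, so they are a description and were not tested.

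On the scale of RPM, 5′ end reads stood at 436.8 and 449.7 in the TDRKH IP libraries and at 406.7 and 502.2 in the input libraries, so the groups overlapped. Inner reads stood at 35.5 and 30.9 RPM in the TDRKH IP libraries, against 388.2 and 349.3 RPM in the input libraries, a level 11.1 times higher in input. 3′ end reads stood at 4.58 and 4.43 RPM in the TDRKH IP libraries, against 366.0 and 396.6 RPM in the input libraries, a level 84.7 times higher in input. The IP values of the 3′ end rested on 51 and 49 reads. The groups thus lay apart over the middle and the 3′ end of the 5S molecule and overlapped at its 5′ end.

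**Figure D1:**
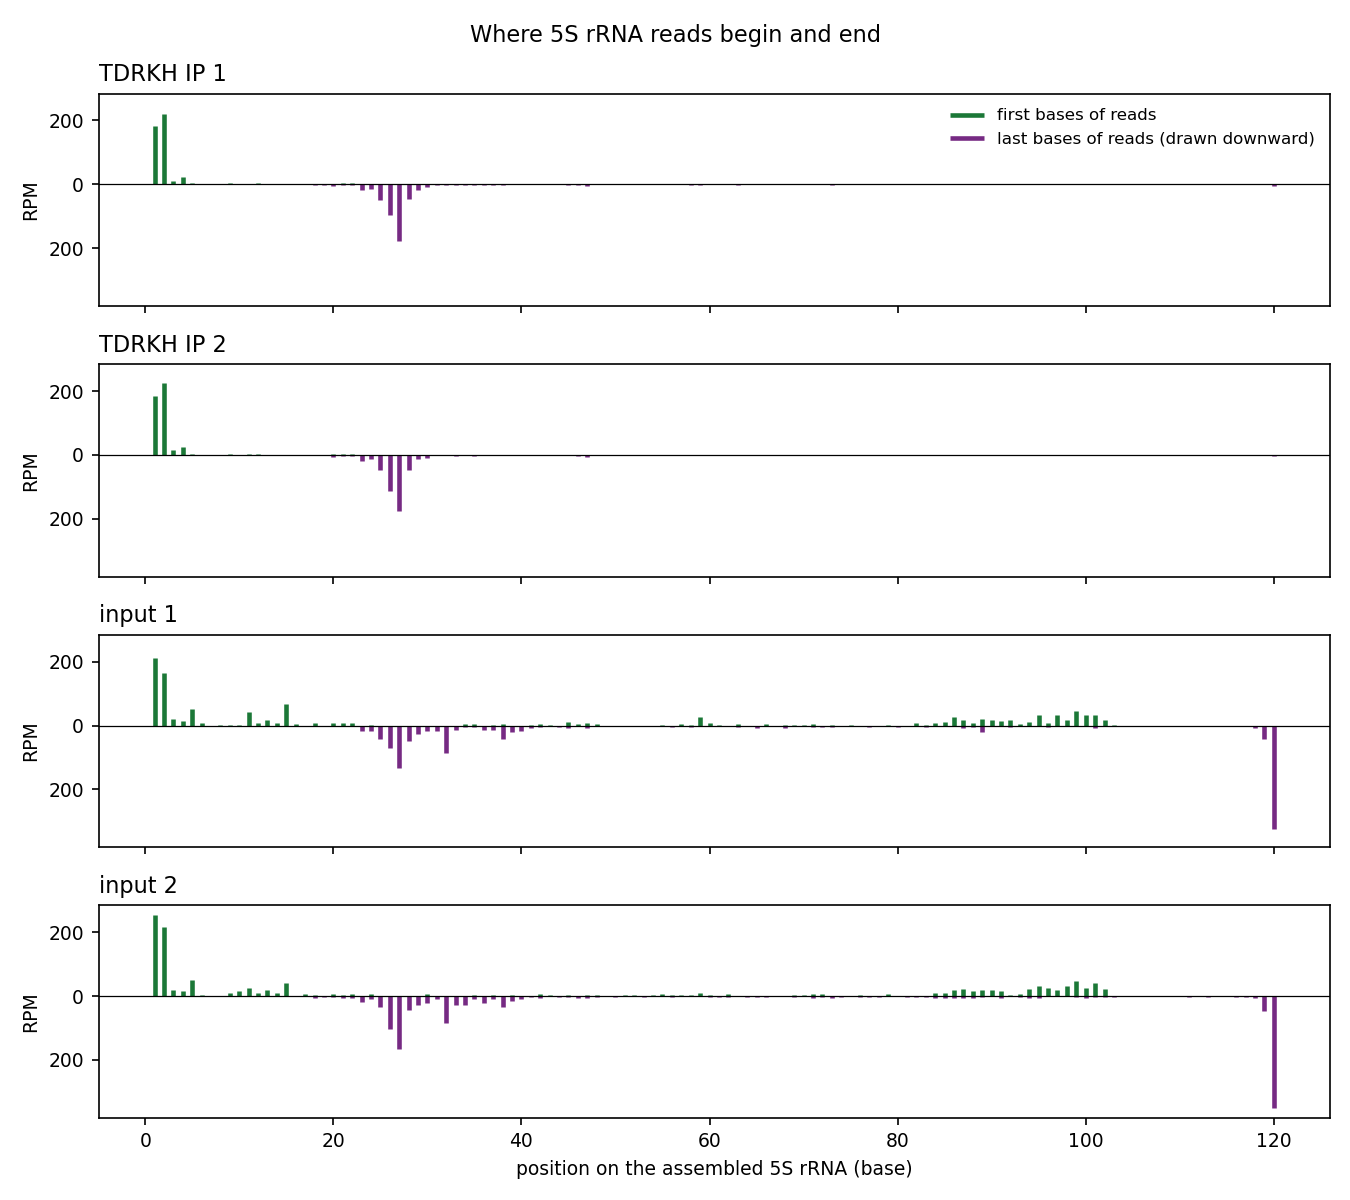
First bases of placed 5S reads (drawn upward) and last bases (drawn downward) in RPM at each base of the rebuilt 5S rRNA, one panel per library. In all 4 libraries the most frequent first bases were bases 1 and 2, and base 27 was a frequent last base. In input a further peak of ends stood at base 120, at 325.2 and 350.8 RPM, against 4.31 and 4.07 RPM in the TDRKH IP libraries.

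Within the 5′ end the 2 groups began at the same bases in unequal proportion. Reads from base 2, a T, made 50.5% and 49.8% of 5′ end reads in the TDRKH IP libraries and 40.1% and 42.8% in the input libraries. Reads from base 1, a G and the first base of the rRNA, made 42.1% and 41.1% in the TDRKH IP libraries and 51.7% and 50.6% in the input libraries. Base 1 led in both input libraries and base 2 led in both TDRKH IP libraries. Short of the 3′ end, reads of all 4 libraries ended most often at base 27, with 176.8 and 174.4 RPM in the TDRKH IP libraries and 133.4 and 165.4 RPM in the input libraries. Ends at base 32, which were 1.98 and 1.45 RPM in the TDRKH IP libraries, reached 85.2 and 83.5 RPM in the input libraries.

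First T was found in 55.9% and 55.6% of all 5S reads in the TDRKH IP libraries and in 24.3% and 28.4% in the input libraries. The mean was 55.7% ± 0.236 in TDRKH IP and 26.4% ± 2.88 in input (SD, n = 2 each), a difference of 29.4 percentage points that exceeded the spread between replicates. A two-sided exact permutation test gave p = 0.333, the smallest p that 2 against 2 libraries allow. Among 5′ end reads alone the share was 55.3% in both TDRKH IP libraries (95% Wilson intervals 53.9% to 56.7% and 53.9% to 56.6%), against 42.6% and 45.6% in the input libraries (38.1% to 47.3% and 41.9% to 49.4%). Such intervals cover counting error only. Inner reads began with T in 31.1% and 30.1% of cases in the TDRKH IP libraries and in 13.1% and 16.9% in the input libraries. Reads of piRNA clusters, which hold 96.9% and 96.8% of listed reads in the TDRKH IP libraries and 88.8% and 87.8% in the input libraries, began with T in 88.6% and 87.8% of cases in TDRKH IP and 87.7% and 88.5% in input. The share of first T in 5S reads of the TDRKH IP libraries thus lay between that of input 5S reads and that of piRNA cluster reads.

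Lengths of 5S reads were more narrowly spread in the IP. The range of 23 to 27 nt held 83.4% and 84.5% of 5S reads in the TDRKH IP libraries and 43.0% and 46.5% in the input libraries. Reads of 28 to 36 nt made 5.39% and 4.99% in the TDRKH IP libraries and 30.2% and 29.9% in the input libraries. The mean length was 25.2 nt ± 0.0133 in TDRKH IP and 26.02 nt ± 0.128 in input (SD, n = 2 each; two-sided exact permutation p = 0.333, the smallest possible). The means lay close together although the distributions did not, since input 5S reads were spread over 18 to 36 nt.

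**Figure D2:**
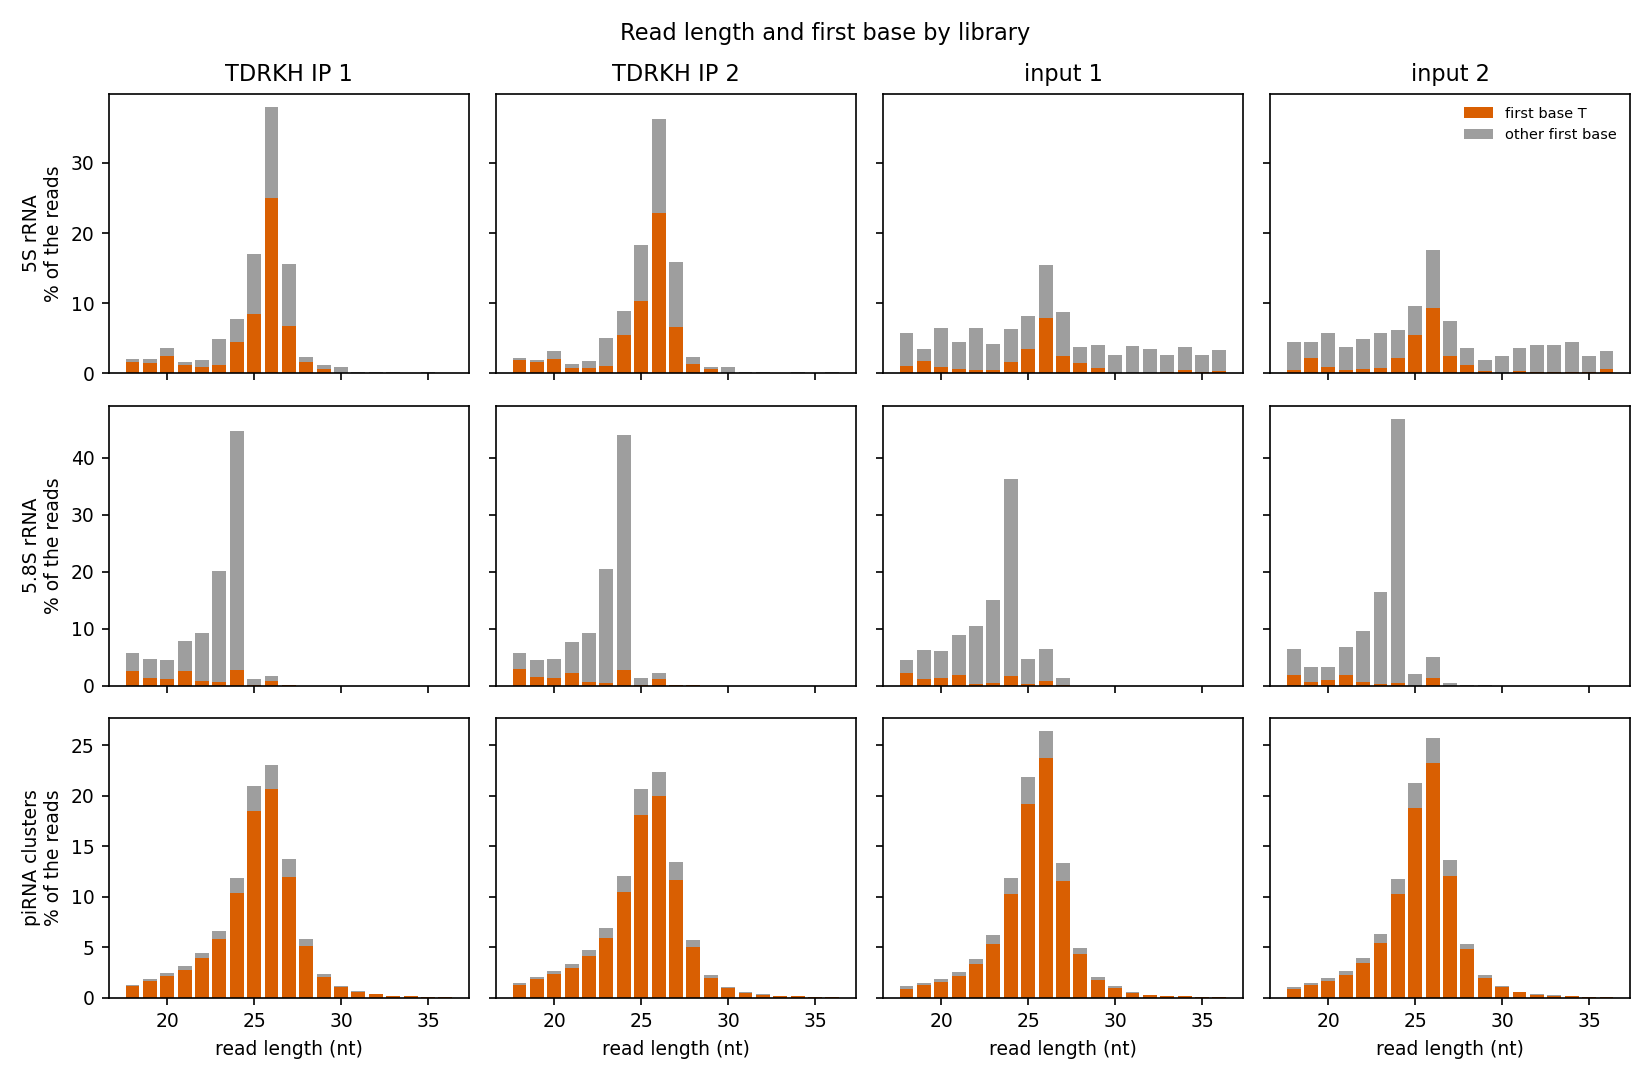
Share of reads (%) at each length in nt, with reads that begin with T in orange and all others in grey, for 5S rRNA, 5.8S rRNA and piRNA clusters in each library. 5S reads are most frequent at 26 nt in all 4 libraries, with a lower peak and a broad spread of other lengths in the input libraries. 5.8S reads stop mostly at 24 nt in all 4 libraries.

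The sums of both families were compared by edgeR's quasi-likelihood test with Benjamini-Hochberg adjustment over 5368 names, 16.7% of which were called higher and 58.3% lower at an adjusted p under 0.05. 5S reads summed to 532.7 and 536.8 RPM in the TDRKH IP libraries and to 1210 and 1283 RPM in the input libraries. Per listed read the 5S family fell by 1.22 ± 0.05 on the log2 scale (SE, adjusted p = 1.87e-06), but its change was 0.16 with TMM factors (trimmed mean of M-values), 0.93 with DESeq2 size factors and 3.54 with microRNA reads as library size. 5.8S reads summed to 821.3 and 995.1 RPM in the TDRKH IP libraries and to 857.9 and 1181 RPM in the input libraries, with overlapping groups, a log2 change of -0.17 ± 0.15 (SE) and an adjusted p of 0.314. The 5.8S change was likewise above 0 under those 3 scalings, at 1.21, 1.98 and 4.58. Scaled to piRNA cluster reads it was -0.31. Without the first input library the 5.8S change was -0.38, without the second it was 0.08, and without the second TDRKH IP library it was -0.32 and passed the threshold (adjusted p = 0.00304). The median change of all names was -2.44 per listed read and was shifted by 1.33 with TMM factors, 2.11 with DESeq2 size factors and 6.86 with microRNA reads. Set against that median, 5S stood 1.22 higher per listed read, 1.27 with TMM factors, 1.26 with DESeq2 size factors and 0.88 lower (-0.88) with microRNA reads. 5.8S stood 2.27, 2.32, 2.32 and 0.16 above the median in the same order. The median itself depends on which names are tested. Set against it per listed read, 5S was at -1.09 with names of at least 10 RPM in 2 libraries, -1.06 with the IP libraries thinned and -1.56 with no filter. It was at -0.62 with each distinct sequence counted once, where library size was the number of distinct sequences. Without the first or the second input library it was at -0.18 and -0.63. 5.8S was then at -0.042, 0.038, -0.51, 0.062, 0.71 and 0.63 in the same order. Without the first or the second TDRKH IP library, 5S stood 1.88 and 1.96 above the median and 5.8S 3.06 and 2.87. The place of either family relative to all names thus turns with the filter, the unit counted and the libraries kept.

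Dividing each family by length and first base gave 12 classes, 10 of which passed the filter on low counts. Of these, 1 was called higher and 6 lower per listed read, against 16.7% and 58.3% of the 5376 names tested with them. With TMM factors 7 were higher and 3 lower, against 1824 and 2521 of all 5376 names. With DESeq2 size factors these were 7 and 2, against 1819 and 1341 of 5376. With microRNA reads as library size they were 9 and 0, against 4532 and 348 of 5386 names. A scaling moves all classes by nearly the same amount, so it bears on their sign and not on their order.

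The class of 5S reads of 23 to 27 nt that began with T stood at 244.2 and 248.3 RPM in the TDRKH IP libraries and at 193.6 and 258.9 RPM in the input libraries. Its log2 change of 0.11 ± 0.11 (SE) had an edgeR adjusted p of 0.407; scaled to piRNA cluster reads it was -0.02, and under the other scalings it was above 0. Without the first input library it was -0.07, and without the second it was 0.35 and passed the threshold (adjusted p = 0.0451). 5S reads of the same length with another first base stood at 199.9 and 205.3 RPM in the TDRKH IP libraries and at 327.0 and 338.2 RPM in the input libraries, a log2 change of -0.72 ± 0.06 (edgeR adjusted p = 6.21e-05) that was 0.65 with TMM factors, 1.43 with DESeq2 size factors and 4.04 with microRNA reads. The T class thus overlapped between groups where its counterpart did not.

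The long 5S reads without a first T, 28 to 36 nt, had the lowest change of the 10 classes. They stood at 16.0 and 15.1 RPM in the TDRKH IP libraries and at 323.3 and 340.5 RPM in the input libraries, and fell by 4.42 ± 0.09 on the log2 scale (edgeR adjusted p = 3.30e-08); with microRNA reads as library size the value was 0.34. Short reads without a first T, 18 to 22 nt, stood at 19.1 and 18.1 RPM in the TDRKH IP libraries and at 265.0 and 240.0 RPM in the input libraries, and fell by 3.76 ± 0.10 (adjusted p = 1.05e-07; 1.00 with microRNA reads). Both kept their sign under the other scalings. The long reads with a first T stood at 12.8 and 11.7 RPM in the TDRKH IP libraries and at 41.7 and 43.6 RPM in the input libraries (log2 change -1.81 ± 0.17, adjusted p = 7.92e-05; 0.34 with DESeq2 size factors and 2.95 with microRNA reads). Short reads with a first T stood at 40.8 and 38.2 RPM in the TDRKH IP libraries and at 58.9 and 62.0 RPM in the input libraries (-0.62 ± 0.12, adjusted p = 0.00247; above 0 with TMM factors, DESeq2 size factors and microRNA reads). That call was lost without the first or the second input library, at -0.65 and -0.59 (adjusted p = 0.05004 and 0.0696).

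In each length range of 5S, reads with a first T therefore had a higher log2 change than reads without one. The same order held in 5.8S. 5.8S reads of 23 to 27 nt that began with T were the class called higher, at 37.2 and 46.5 RPM in the TDRKH IP libraries and 26.9 and 25.1 RPM in the input libraries (log2 change 0.69 ± 0.21, edgeR adjusted p = 0.0168). Those without a first T stood at 521.1 and 631.5 RPM in the TDRKH IP libraries and 519.8 and 808.7 RPM in the input libraries, with overlapping groups (-0.22 ± 0.18, adjusted p = 0.310, above 0 with TMM factors, DESeq2 size factors and microRNA reads). Short 5.8S reads changed by 0.29 ± 0.16 with a first T (adjusted p = 0.131) and by -0.33 ± 0.11 without (adjusted p = 0.0261), the second again above 0 under those 3 scalings. The call of the 23 to 27 nt class with a first T was lost without the second TDRKH IP, the first input or the second input library (0.52, 0.74 and 0.64). Short reads with a first T passed the threshold without the first TDRKH IP library (0.43, adjusted p = 0.0301) and with a replicate block (0.30, adjusted p = 0.0449), and changed by 0.14 without the second TDRKH IP library. The call of the short reads without one was lost without the first TDRKH IP, the first input or the second input library (-0.20, -0.39 and -0.26). The 23 to 27 nt class without a first T passed the threshold without the second TDRKH IP library (-0.36) and was 0.15 without the second input library. The difference between classes was not itself tested.

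**Figure D3:**
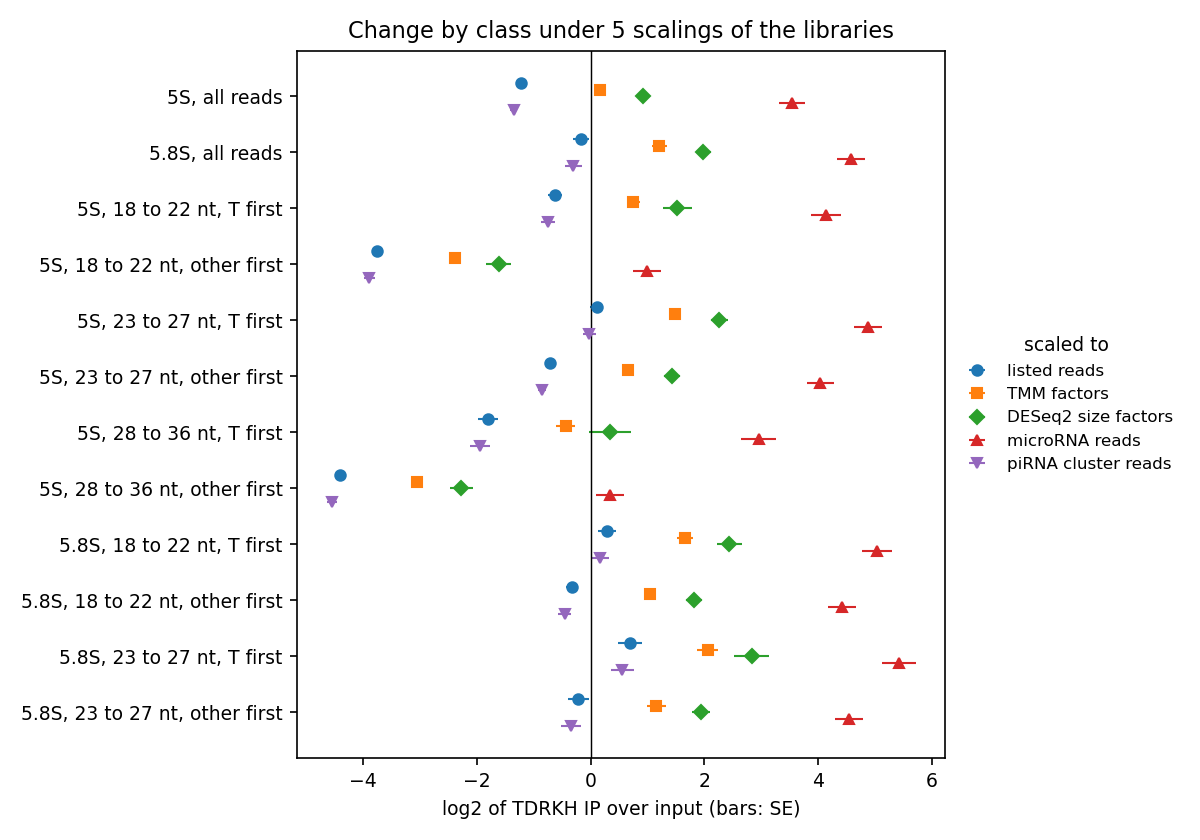
Log2 change (TDRKH IP over input, bars are SE) of both families and of their classes by length and first base, each under 5 ways of scaling the libraries. Each scaling moves all classes by nearly the same amount. 5S reads of 28 to 36 nt without a first T lie lowest, and 6 of the 12 values below 0 or above it on listed reads have the other sign with TMM factors.

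The change of single 5S copies went with the part of the rRNA that their reads came from. A read that matched several names was divided equally among them, and a 5S sequence had a median of 9 and up to 90 5S names, so copies share reads and are not independent. The 299 copies had 261 distinct sets of sequences, the 10 copies with the most reads held 75.4% of 5S reads, and 241 copies had under 10 reads over all libraries. Of the 299, 39 passed the filter on low counts; 2 were called higher and 24 lower by edgeR's quasi-likelihood test, against 16.7% and 58.2% of all 5414 names tested. With TMM factors 18 were higher and 16 lower, against 1835 and 2551 of all 5414 names. With DESeq2 size factors these were 17 and 8, against 1836 and 1352 of 5414. With microRNA reads as library size 43 copies were tested, 36 higher and 6 lower, against 4569 and 354 of 5429 names. The median log2 change was -1.08 over these 39 and -2.44 over all names, an order that turned with the filter, with thinning and with the unit counted. It was -1.84 for 5S copies and -0.13 for all names at 10 RPM in 2 libraries, -1.95 and -0.24 with the IP libraries thinned, -1.80 and -1.04 with each distinct sequence counted once, and -2.61 and 0.34 with no filter.

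ENSBTAG00000045518.1 and ENSBTAG00000047122.1 had identical sequence sets and the most reads. Each stood at 43.1 and 43.7 RPM in the TDRKH IP libraries and at 147.8 and 162.3 RPM in the input libraries (log2 change -1.84 ± 0.09, edgeR adjusted p = 3.97e-06, but 0.30 with DESeq2 size factors and 2.92 with microRNA reads). Of their reads, 73.8% were 5′ end reads, and 56.8% began with T in TDRKH IP against 18.8% in input. ENSBTAG00000035041.1 stood at 42.2 and 42.7 RPM in the TDRKH IP libraries and at 85.6 and 93.5 RPM in the input libraries, with 85.3% 5′ end reads and a log2 change of -1.08 ± 0.11 (adjusted p = 0.000106; 0.26 with TMM factors). ENSBTAG00000028443.1, ENSBTAG00000028065.1, ENSBTAG00000047373.1 and ENSBTAG00000045233.1, with 89.0% to 90.9% 5′ end reads, changed by -0.71, -0.63, -0.65 and -0.60 (adjusted p = 0.00111, 0.00181, 0.00180 and 0.00255), and all 4 were above 0 with TMM factors, DESeq2 size factors and microRNA reads. Without the second input library ENSBTAG00000045233.1 changed by -0.52 and was not called (adjusted p = 0.0551). In the TDRKH IP libraries these 7 copies lay between 41.8 and 43.7 RPM, while in the input libraries they spanned 59.8 to 162.3 RPM.

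The same held along the whole range of 5′ end shares, given here as a description since the change and the share come from the same reads. Among tested copies with 95% or more 5′ end reads, 9 in number, the log2 change lay between -0.43 and 0.52, and the smallest edgeR adjusted p was 0.0563 (ENSBTAG00000029080.1, 39.2 and 43.6 RPM in the TDRKH IP libraries and 26.3 and 34.4 RPM in the input libraries). These 9 had a median first T share of 16.3% (7.66% to 92.7%), against 52.2% in copies with 50% to 95%. First T was more frequent in TDRKH IP in 28 of the 39 tested copies, but not in all. In ENSBTAG00000029080.1 it was 26.1% in TDRKH IP and 29.5% in input. Among the 9 with 50% to 95%, 8 were called lower and the range was -1.84 to -0.60. The 16 copies with fewer 5′ end reads were all called lower, with a median log2 change of -5.44 and a range of -6.44 to -2.34; their levels were 0.0751 to 2.60 RPM in the TDRKH IP libraries and 2.53 to 25.6 RPM in the input libraries. Copies so low in TDRKH IP could pass the filter through input alone and then had to be lower, so that count is not read as a result. For example, ENSBTAG00000046106.1 stood at 0.371 and 0.246 RPM in the TDRKH IP libraries and at 22.9 and 24.1 RPM in the input libraries (log2 change -6.15 ± 0.38, adjusted p = 1.04e-05). ENSBTAG00000037239.1, with the lowest change of the 39, stood at 0.303 and 0.217 RPM in the TDRKH IP libraries and at 19.2 and 22.7 RPM in the input libraries (-6.44 ± 0.41, adjusted p = 1.37e-05). ENSBTAG00000028704.1, at 2.58 and 2.60 RPM in the TDRKH IP libraries and 25.6 and 21.8 RPM in the input libraries, changed by -3.18 ± 0.27 (adjusted p = 5.12e-05; 1.55 with microRNA reads). The remaining copies named by the same rule, ENSBTAG00000040129.1, ENSBTAG00000044247.1, ENSBTAG00000030857.1, ENSBTAG00000029583.1 and ENSBTAG00000045894.1, changed by -6.07, -6.41, -6.38, -5.99 and -5.78.

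**Figure D4:**
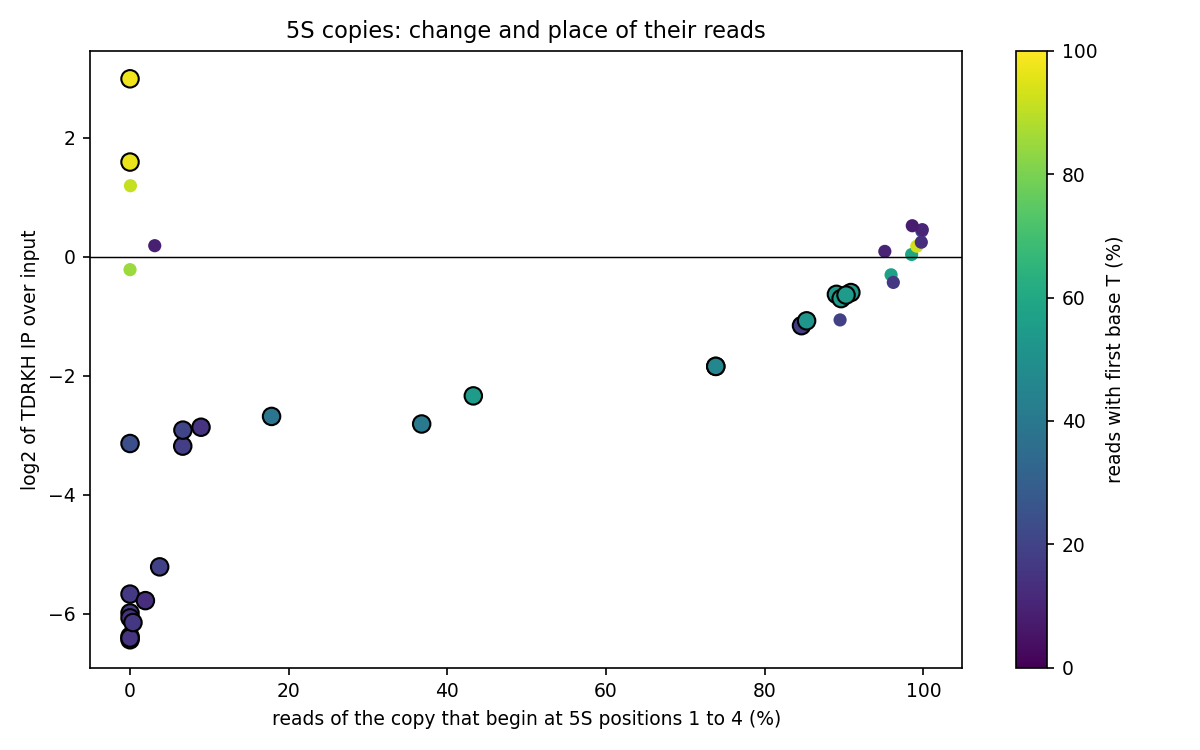
Log2 change (TDRKH IP over input, per listed read) of the 39 tested 5S copies against the share of their reads that begin at bases 1 to 4, coloured by the share of reads with first T (%); black outlines mark copies with an adjusted p under 0.05. Copies on the rebuilt 5S run from -6.44 at low 5′ end shares to 0.52 at shares of 95% or more, and the 2 copies called higher, in yellow at the top left, have no 5′ end reads.

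Copies with few reads on the rebuilt 5S lay outside that order. Their names are listed under 5S, but whether their reads come from 5S rRNA was not tested. For 36 of the 299 copies, under 50% of reads could be placed on the rebuilt 5S, and these 36 copies together held 54.7 and 49.9 RPM in the TDRKH IP libraries and 43.8 and 39.1 RPM in the input libraries. They had a median first T share of 75.4%, against 31.7% in the 263 copies on the 5S stretch. Of the 36, 15 had 80% first T or more, against 28 of the 263. Under 10 reads were held by 26 of the 36 and 215 of the 263, and copies share reads, so these medians and counts only describe. Of the 36, 5 passed the filter, of which 2 were called higher and the other 3 in neither direction, against 16.7% called higher and 58.2% lower of all names. ENSBTAG00000045350.1, with 1 read in each input library, passed the filter through the TDRKH IP libraries alone and had a value under 11 of 16 alternatives, so its direction is not read as a result. The call of ENSBTAG00000044229.1 was lost with no filter (adjusted p = 0.173) and without the second input library (adjusted p = 0.133).

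ENSBTAG00000045350.1 stood at 6.82 and 6.51 RPM in the TDRKH IP libraries and at 0.927 and 0.739 RPM in the input libraries, the second pair resting on 1 read in each. Its log2 change was 2.99 ± 0.57 (edgeR adjusted p = 0.00213). All its reads matched this name alone, 98.0% began with T and their mean length was 19.8 nt. ENSBTAG00000044229.1, whose rebuilt stretch is printed above, stood at 17.1 and 15.2 RPM in the TDRKH IP libraries and at 7.97 and 3.25 RPM in the input libraries (log2 change 1.59 ± 0.38, adjusted p = 0.00665). Of its reads 96.6% began with T, the mean length was 19.4 nt, and only 0.269% were 23 to 27 nt long. The first T was there in both copies, then, while the length was that of neither the 5S peak at 26 nt nor the piRNA cluster reads, which averaged 25.1 nt ± 0.0673 in TDRKH IP and 25.2 nt ± 0.0143 in input (SD, n = 2 each).

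The leading reads of these copies share no placement with the 5S stretch. They are those with the most reads after each read was divided among its names. The first, of 20 nt, matched its copy alone, while the 19 nt read in capitals in the stretch above also matched names outside the 5S family. The first base is in capitals.
ENSBTAG00000044229.1: Tgccaatgcaggagacacaa
ENSBTAG00000045350.1: Ttggaaggactgatgttgaag
ENSBTAG00000043814.1: Tgctaagttgcttcagtcgtgtccg
The first was read 60 and 50 times in the TDRKH IP libraries and 4 and 1 times in the input libraries. The second was read 23 and 17 times in the TDRKH IP libraries and 0 times in both input libraries, and a count of 0 over both inputs allows up to 3 reads, or 1.23 RPM. ENSBTAG00000043814.1 and the 2 other tested copies of this kind, ENSBTAG00000036978.1 and ENSBTAG00000037199.1, fell outside the rule for named copies and were chosen after their values were seen. ENSBTAG00000043814.1 stood at 15.5 and 13.4 RPM in the TDRKH IP libraries and at 15.8 and 18.1 RPM in the input libraries (log2 change -0.22 ± 0.23, adjusted p = 0.410), with 84.9% first T. ENSBTAG00000036978.1 had 91.2% first T and a change of 1.19 ± 0.55 (adjusted p = 0.0846), and ENSBTAG00000037199.1 had 8.76% first T and a change of 0.18 ± 0.40 (adjusted p = 0.687).

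5.8S copies gave one pattern for most of the family. Of the 13, 9 passed the filter, 7 of which had identical sequence sets; 1 was called higher and 1 lower, against 16.7% and 58.2% of all names. Each of the 7, among them ENSBTAG00000045747.1, ENSBTAG00000045825.1, ENSBTAG00000045952.1, ENSBTAG00000046882.1 and ENSBTAG00000047401.1, stood at 113.0 and 136.2 RPM in the TDRKH IP libraries and at 116.4 and 163.5 RPM in the input libraries (log2 change -0.19 ± 0.16, edgeR adjusted p = 0.324, above 0 with TMM factors, DESeq2 size factors and microRNA reads). ENSBTAG00000046680.1 stood at 26.8 and 36.5 RPM in the TDRKH IP libraries and at 21.5 and 18.8 RPM in the input libraries (0.68 ± 0.27, adjusted p = 0.0496), a call that was lost under 9 of 16 alternatives. Leaving out the second TDRKH IP, the first input or the second input library each ended it, at adjusted p of 0.220, 0.354 and 0.481. ENSBTAG00000045801.1 stood at 2.93 and 3.88 RPM in the TDRKH IP libraries and at 18.5 and 16.5 RPM in the input libraries (-2.33 ± 0.31, adjusted p = 0.000378; 2.40 with microRNA reads), with a first T in 48.3% of its reads in TDRKH IP and 7.10% in input.

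Within 5.8S, reads from its start and reads from stretch 2 differed. Stretch 1 held 73.7% and 70.3% of 5.8S reads in the TDRKH IP libraries and 79.5% and 87.1% in the input libraries. Stretch 2 held 24.6% and 27.7% in the TDRKH IP libraries and 15.6% and 11.1% in the input libraries, with 201.9 and 275.5 RPM in the TDRKH IP libraries and 133.4 and 130.6 RPM in the input libraries. Neither pair of shares overlapped between groups. Stretch 3 held 13.4 and 17.9 RPM in the TDRKH IP libraries and 25.9 and 10.3 RPM in the input libraries, with overlap. First T was rarer than in 5S, at 13.1% and 13.3% of all 5.8S reads in the TDRKH IP libraries and 9.94% and 7.94% in the input libraries (13.2% ± 0.140 and 8.94% ± 1.41, SD, n = 2 each; two-sided exact permutation p = 0.333, the smallest possible).

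5.8S lengths carry a limit of the listed reads. Reads that match the start of 5.8S exactly were listed up to 24 nt in all 4 libraries, with 3087 and 3513 reads of 24 nt in the TDRKH IP libraries and 275 and 636 in the input libraries. Reads with 1 or 2 differing bases were listed up to 28 nt, and those of 26 nt numbered 43 and 66 in the TDRKH IP libraries and 51 and 56 in the input libraries. Longer exact reads were not analysed here, so the peak at 24 nt is not read as the natural length, and the 5.8S means of 22.7 nt ± 0.00999 in TDRKH IP and 22.8 nt ± 0.102 in input (SD, n = 2 each) are bounded by it. The 5.8S levels, shares and changes given above and below leave longer exact reads out too. How that weighs on each group was not tested. 5S reads showed no such edge in length.

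**Figure D5:**
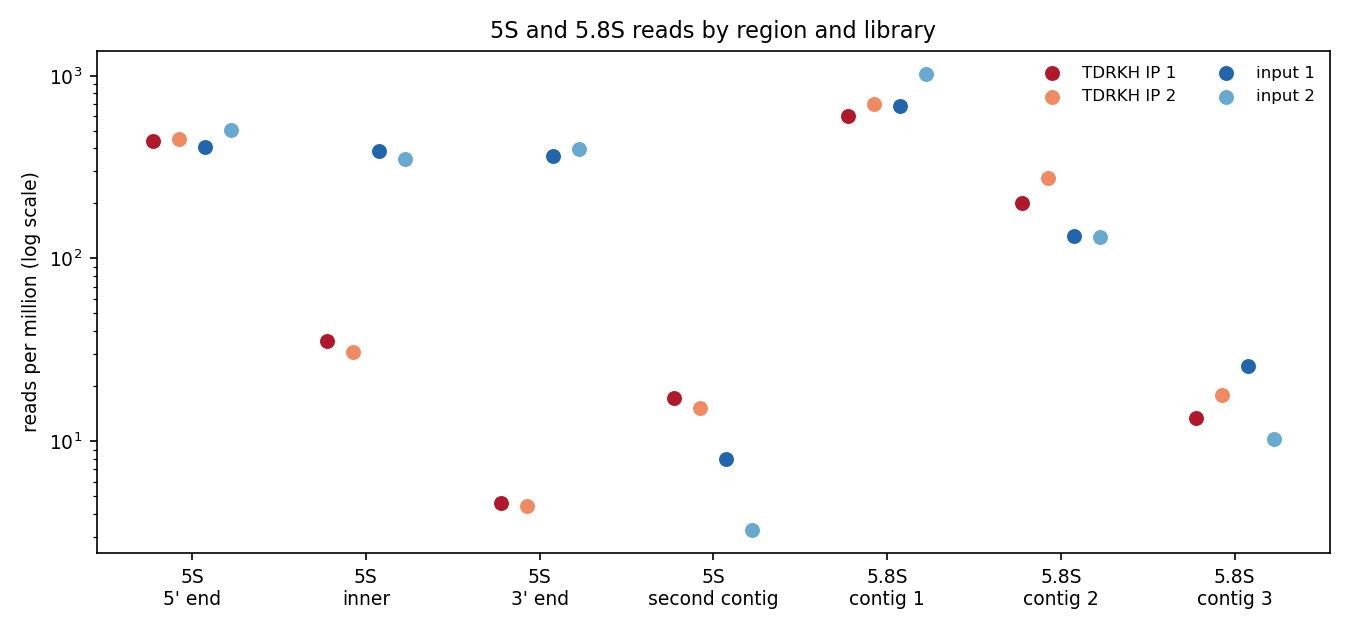
Level in RPM on a log scale of 5S reads by part and of 5.8S reads by rebuilt stretch, one point per library. Groups overlap for the 5S 5′ end, 5.8S stretch 1 and stretch 3 (contigs 1 and 3 on the axis), input lies above TDRKH IP for inner and 3′ end reads, and TDRKH IP lies above input for the second 5S contig and 5.8S stretch 2, per listed read.

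Single sequences were tested among the 11786 sequences with at least 10 RPM in 2 libraries, of which 41.9% were called higher and 19.9% lower. Of the 1855 5S sequences 25 passed that filter, with 5 called higher and 14 lower, and of the 708 5.8S sequences 18 passed, with 5 higher and 3 lower. A sequence could pass through its level in 1 group alone, so the counts are given without a reading. A leading read of the 5S 3′ end and leading 5.8S reads show what was sampled. Capitals mark the first base and each base that differs from the rebuilt stretch. Single 5S reads that begin at bases 1 to 4 are not given one by one.
5S, bases 99 to 120: Gaataccgggtgctgtaggctt
5.8S, stretch 1, bases 1 to 24: Gactcttagcggtggatcactcgg
5.8S, stretch 1, bases 1 to 26: GacCcttagcggtggatcactcggct
5.8S, stretch 2, bases 22 to 44: Gaattgcaggacacattgatcat

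Among these single 5S reads, the 3′ end had the highest level in input. The read of bases 99 to 120, which ends at the last base of the rRNA, was counted 4 and 6 times in the TDRKH IP libraries and 36 and 48 times in the input libraries (log2 change -6.19 ± 0.46, edgeR adjusted p = 3.26e-13). The read of bases 101 to 120 was counted 2 and 8 times in the TDRKH IP libraries and 25 and 48 times in the input libraries (-5.98 ± 0.49, adjusted p = 5.24e-12). An inner read, of bases 15 to 32, was counted 0 and 3 times in the TDRKH IP libraries and 37 and 31 times in the input libraries, a pooled ratio per listed read of 0.00484 (exact 95% interval 0.000973 to 0.0147, counting error only). These reads passed the filter through their level in input alone, so their direction is not read as a result.

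For 5.8S the leading read, of bases 1 to 24, had 3087 and 3513 reads in the TDRKH IP libraries and 275 and 636 in the input libraries, and its change of -0.29 ± 0.25 had an edgeR adjusted p of 0.302. Without the first input library it was -0.66 and passed the threshold, and without the second it was 0.22. The shorter reads from base 1, ending at bases 23, 22 and 21, changed by 0.06, -0.53 and 0.00 (adjusted p = 0.857, 0.130 and 0.993), and the read of bases 2 to 24 by 0.26 (adjusted p = 0.544). Of these, without the first input library the read ending at base 22 changed by -0.88 (adjusted p = 0.0149), and without the second the read of bases 2 to 24 changed by 1.499 (adjusted p = 0.00540). The read of stretch 2, bases 22 to 44, was counted 332 and 418 times in the TDRKH IP libraries and 10 and 21 times in the input libraries (1.42 ± 0.38, adjusted p = 0.00234; 1.25 and no longer called without the second TDRKH IP library). The 26 nt read that carries T4C was counted 21 and 42 times in the TDRKH IP libraries and 37 and 38 times in the input libraries (-3.44 ± 0.39, adjusted p = 6.62e-09, 1.27 with microRNA reads). The token gives the rebuilt base, its position and the read's base. The T4C read passed the filter through its level in input alone, so its direction is not read as a result. The read of bases 22 to 44 would pass through the TDRKH IP libraries alone, and stood at 9.27 and 15.5 RPM in the input libraries. Its direction is not read as a result either.

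A last base A that differs from the rebuilt sequence made a larger share in the TDRKH IP libraries. Among 5S 5′ end reads placed wholly within the stretch, those with such an A made 14.2% and 15.5% in the TDRKH IP libraries and 5.47% and 7.50% in the input libraries. For T at that place the shares were 1.05% and 1.19% in the TDRKH IP libraries and 0.456% and 0.735% in the input libraries, the second pair resting on 2 and 5 reads. Differences elsewhere in the read went the other way, with 7.25% and 6.72% in the TDRKH IP libraries and 38.3% and 26.2% in the input libraries. In 5.8S reads that begin at bases 1 to 4 of stretch 1, a last A made 5.71% and 6.58% in the TDRKH IP libraries and 2.12% and 3.22% in the input libraries. A last T went the other way in 5.8S, with 0.228% and 0.185% in the TDRKH IP libraries and 0.848% and 0.879% in the input libraries. The groups overlapped in none of these 5 comparisons, and each is a share that scaling does not move.

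The tested 5.8S sequence with such an A, chosen after its values were seen, is printed with the differing last base in capitals after the first.
5.8S, G24A: GactcttagcggtggatcactcgA
It was counted 293 and 401 times in the TDRKH IP libraries and 4 and 34 times in the input libraries (log2 change 1.04 ± 0.43, SE, edgeR adjusted p = 0.0363). The read would pass the filter through the TDRKH IP libraries alone, and stood at 3.71 and 25.1 RPM in the input libraries, so its direction is not read as a result. It stayed above 0 under the scalings tried, but was not called with TMM factors, with piRNA cluster reads as library size or under DESeq2 with either scaling (adjusted p = 0.540, 0.0711, 0.662 and 0.152). Without the first input library it changed by 0.32 and was not called, and the call was also lost without the first (1.28) or the second (0.82) TDRKH IP library. Without the second input library it changed by 3.07.

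Other RNA classes give the setting. Of all 5414 names tested, 16.7% were called higher and 58.2% lower per listed read, with a median log2 change of -2.44, and the counts below stand beside those shares. The 5 other cytoplasmic rRNA names, all of the small subunit, were all called lower per listed read, with a median log2 change of -2.35 that was 2.41 with microRNA reads as library size and below 0 under the other scalings. They summed to 2175 and 2167 RPM in the TDRKH IP libraries, against 10230 and 11310 RPM in the input libraries. First T was found in 50.9% and 51.6% of their reads in TDRKH IP and in 27.4% and 29.1% in input. Lengths of 23 to 27 nt made 72.6% and 72.7% of their reads in TDRKH IP and 39.6% and 38.9% in input. The narrower lengths in the IP were thus not particular to 5S. Both mitochondrial rRNAs were lower (-6.40 and -5.51), and under all 5 scalings. Of 719 tested transcripts of RNA polymerase III, mostly tRNA, 28 were higher and 404 lower with a median of -1.57, which was 0.54 with DESeq2 size factors and 4.43 with microRNA reads. Of 1138 piRNA cluster names 716 were higher and 39 lower, with a median of 0.37 that was above 0 under all 5 scalings. microRNAs that mark cumulus and granulosa cells, the somatic cells around the oocyte (miR-21, miR-503, miR-424 and miR-132), summed to 1.26 and 2.71 RPM in the TDRKH IP libraries and to 236.3 and 282.9 RPM in the input libraries, and 4 of 4 tested were lower (with microRNA reads as library size, 2 of 2). Of the input sums, miR-21-3p alone made 196.4 and 223 RPM. miR-21-5p stood at 2.78 and 3.69 RPM in the input libraries and had no test value. All microRNA reads numbered 6712 and 8125 in the TDRKH IP libraries and 19127 and 24591 in the input libraries, although the IPs had more listed reads. The part of these somatic cells in the input 5S reads was not tested. An IP against input measures neither the number of cells of a type nor their RNA per cell.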

How the data were processed

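Small RNA was sequenced from 2 TDRKH IP and 2 input libraries. Per the labels' protocols, RNA was extracted with TRIZOL and libraries were made with a NEXTflex small RNA kit. The authors deposited, per library, a table of read sequences, each with its whole-number read count and all its annotated names; the sources used here give no aligner settings and no genome build. Rows named as 5S or 5.8S rRNA were taken, and a row's reads were divided equally among its names, then rounded for tests. None of the 312 copy identifiers matched the gene table at hand, so identifiers are as deposited.

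TDRKH IP was tested against input with edgeR 4.0.16 (quasi-likelihood, library size the listed reads, filterByExpr) in R 4.3.3 over all names, and p-values were adjusted by Benjamini-Hochberg over the whole table, with a threshold of 0.05. Sequences were tested from 10 RPM in 2 libraries. The script was checked on simulated counts. Shares and lengths had exact permutation tests (scipy 1.17.1). Single 5S reads of the 5′ end and the rebuilt 5S sequence are not reported here. Stretches were rebuilt from 15-base words seen in at least 3 reads. Replicate counts differed beyond sampling noise (chi-square per degree of freedom 1.63 in TDRKH IP, 2.74 in input). Alternatives used DESeq2 1.42.0, other library sizes, filters and sharing, and left out each library. Copies were named by a rule: in each family and direction the 10 with the most reads and 5 further with the largest change among those called, and the 5 with the most reads overall. Members, lists and tests were chosen with earlier results of these data known.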

Additional observations from a re-analysis of the deposited data

How the results depend on the processing

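Of results that answer a comparison, 134 alternative values kept their direction and their side of the threshold (counts within 1.5 times), 2 newly passed it, 7 changed sign and 61 counts moved further. Among the remaining results, 436 alternative values stayed the same, 22 became stronger, 41 became weaker and 63 changed sign. With TMM factors, copies called higher were 18 (5S) and 8 (5.8S), classes 7 higher and 3 lower, 5S sequences 0 higher (1 at an unadjusted p under 0.05) and 5.8S sequences 1 higher and 6 lower. All names stood at 1835 higher and 2551 lower of 5414, and all sequences at 667 and 2727 of 11786. The log2 change was then 0.16 for 5S and 1.21 for 5.8S; 1.04, 1.16, 0.75 and 0.65 for the classes 5.8S 18 to 22 nt and 23 to 27 nt without T, 5S 18 to 22 nt with T and 5S 23 to 27 nt without T; and 0.71, 0.64, 0.26, 0.74, 1.16 and 0.70 for copies ENSBTAG00000028065.1, ENSBTAG00000028443.1, ENSBTAG00000035041.1, ENSBTAG00000045233.1, ENSBTAG00000045747.1 and ENSBTAG00000047373.1. The reads of 5.8S bases 2 to 24, 1 to 21 and 1 to 23 became -0.40, -0.67 and -0.62. With DESeq2 size factors, 5S copies were 17 higher and 8 lower, 5.8S copies 8 and 0, classes 7 and 2, 5S sequences 0 higher (0 at an unadjusted p under 0.05) and 5.8S sequences 1 and 5. All names stood at 1836 and 1352 of 5414, and all sequences at 198 and 2615 of 11786. The same families, classes and copies became 0.93 and 1.98; 1.82, 1.94, 1.53 and 1.43; and 1.51, 1.44, 1.06, 1.54, 1.96 and 1.496, with 0.34 for 5S 28 to 36 nt with T and 0.30 for copy ENSBTAG00000045518.1; the 3 reads became -0.33, -0.63 and -0.59. With microRNA reads as library size, 5S copies were 36 and 6, 5.8S copies 10 and 0, classes 9 and 0, 5S sequences 11 higher and 5.8S sequences 17 and 0. All names stood at 4569 and 354 of 5429, and all sequences at 11243 and 380 of 11786. Families, classes and copies were then 3.54 and 4.58; 4.42, 4.54, 4.14 and 4.04, with 1.00, 2.95 and 0.34 for 5S 18 to 22 nt without T and 28 to 36 nt with and without T; and 4.12, 4.05, 3.68, 4.16, 4.57 and 4.11, with 1.55, 2.92 and 2.40 for copies ENSBTAG00000028704.1, ENSBTAG00000045518.1 and ENSBTAG00000045801.1. The 5.8S reads with T4C, of bases 1 to 22 and of bases 1 to 24 became 1.27, 4.22 and 4.47.

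Scaled to piRNA cluster reads, 5.8S copies higher were 0, 5S sequences higher 3, the 5S class of 23 to 27 nt with T -0.023, and the 5.8S reads of bases 1 to 21 and 1 to 23 -0.13 and -0.078. DESeq2 on library totals called 0 5.8S copies, 0 classes, 0 5S sequences (4 at an unadjusted p under 0.05) and 3 5.8S sequences higher. Without a filter 1 5S copy, 0 5.8S copies and 0 classes were higher; with 10 RPM in 2 libraries 1 and 0 copies; with the IPs thinned 1 and 0 copies and 2 5S sequences. Counting each row in full for every name gave 143 5S copies lower. Counting each distinct sequence once gave 0 5.8S copies higher and 8 lower, 0 classes higher, -0.98 for 5.8S, -0.80 and -0.56 for its T classes of 18 to 22 and 23 to 27 nt, -0.94 for the 5S T class of 23 to 27 nt and -0.62 for copy ENSBTAG00000046680.1. The cause of these shifts was not tested. Leaving out each library in turn gave 1 to 2 5S and 0 to 1 5.8S copies higher, 0 to 2 classes higher, 0 to 7 5S and 0 to 7 5.8S sequences higher and 0 to 14 and 0 to 3 lower. The 5.8S change was -0.38 to 0.082, that of its 23 to 27 nt class without T -0.49 to 0.15, the 5S T class of 23 to 27 nt -0.070 to 0.35, copy ENSBTAG00000045747.1 -0.39 to 0.094, and the 5.8S reads of bases 2 to 24, 1 to 21, 1 to 23 and 1 to 24 -0.34 to 1.499, -0.24 to 0.34, -0.16 to 0.32 and -0.66 to 0.22. Leaving out either input library also left the 14 lower 5S sequences under the filter, so they had no value there. Same-numbered libraries did not deviate together (correlation 0.02 over 5414 names), and with 2 pairs the numbers do not pair the samples; a replicate block gave 2 classes higher, 3 and 23 5S copies higher and lower, and a 5.8S change of -0.16 (adjusted p = 0.0563). For single sequences the alternative with no filter was not run. With 2 libraries per group a permutation test cannot pass 0.05, and the inputs, with far fewer reads than the IPs, limit what low counts can show.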
